A study of Homo sapiens with 12 samples.

Results

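The genes described here are the interferon-stimulated genes and the signal factors that switch them on, taken as a list of 49 gene symbols. Of these, 48 had a probe set on the array that names that gene alone, out of 19775 genes represented in the same way. STAT2 had no such probe set and is not analysed here. Each gene is represented by the probe set with the highest mean log2 signal over the arrays. The list was drawn up by gene function, but with earlier results of these data known.

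The 12 arrays came from 2 multiple myeloma cell lines, MMS1 and RPMI 8226, with 3 arrays in each of 4 groups. In every group the cells had been stably transduced with a lentivirus that also carries GFP, sorted by flow cytometry and expanded, so the control cells carry a lentivirus and GFP too. In 1 group of each line the virus carried a miR-16 sponge, an RNA with binding sites that hold the microRNA away from its targets, and in the other a control mock sponge. The sponge arrays are called knock-down or KO in the labels, although a sponge leaves the miR-16 genes in place. The study's question was which genes rise when miR-16 is blocked, as a model of myeloma with deletion of 13q. Flasks were grown in parallel and lysed at 1 time point. The labels do not say which arrays came from separate flasks, so every p-value measures the spread between arrays, which may be technical.

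The labelled cell type was checked against markers, and the markers went against it in part. Of 10 plasma cell markers, 2 or 3 had a mean under 5 in each group, on a log2 scale that ends at a lower bound of 4: JCHAIN and TNFRSF17 (BCMA) in all 4 groups and CD38 in 3. The group means of the other plasma cell markers were above 5, with 8.66 to 9.19 for SDC1 (CD138), 8.34 to 8.68 for XBP1 and 6.77 to 7.05 for SLAMF7. They were 6.43 to 6.52 for IRF4, 5.69 to 6.31 for PRDM1, 5.34 to 5.63 for MZB1 and 5.09 to 5.46 for POU2AF1. The median over all genes was 6.37 to 6.51 on the 12 arrays. Erythroid genes were bright in all 4 groups, with a mean of 14.39 for the embryonic globin gene HBE1 in the MMS1 control arrays and of 13.80 in the RPMI 8226 sponge arrays. The groups are therefore called by their labels only. Between the MMS1 groups other marker lists moved too. Of 7 erythroid markers 4 were lower and 1 higher in the sponge arrays, with a summed log2 level of 70.03 to 70.63 against 76.39 to 77.02 in the controls. The T cell receptor subunit gene CD3D was higher by 5.64 on the log2 scale, alone among 8 T cell markers, whose summed log2 level was 50.68 to 51.19 in the sponge arrays and 44.11 to 45.32 in the controls. Of 8 fibroblast and epithelial markers 3 were higher, KRT8 among them by 2.60, with a summed log2 level of 66.34 to 67.13 against 62.23 to 62.61. None of 10 plasma cell, 7 monocyte or 6 plasmacytoid dendritic cell markers passed the test in MMS1. The plasmacytoid dendritic cell list, cells that make much interferon, had a summed log2 level of 36.10 to 36.86 against 37.22 to 37.30, with CLEC4C and IL3RA under 5. The part of these other changes in the interferon results was not tested. In bulk RNA, fewer cells of a type and less RNA per cell cannot be told apart. The 18S ribosomal control probes were dim on 1 array, MMS1 miR-16 sponge replicate 1, with a mean log2 signal of 7.84 against 9.56 to 11.1 on the other 11 arrays.

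Interferons are secreted proteins that warn cells of infection. Type I interferon binds the receptor IFNAR1 and IFNAR2, whose kinases JAK1 and TYK2 activate transcription factors, STAT2 among them. With IRF9 these form a complex that binds the interferon-stimulated response element in front of many genes. Interferon gamma acts through IFNGR1 and IFNGR2, and its signal ends at a gamma-activated sequence in front of its target genes. Many of the induced genes keep a low level without added interferon, which depends on the signal factors that are present. In myeloma, as in other tumours, they matter for antigen presentation and for the response to interferon, which has been used as a treatment.

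The sponge targets the microRNA whose mature sequence is given first, from RefSeq on GRCh38.p14. It is encoded by MIR16-1 at chr13:50049027-50049048 on the minus strand and by MIR16-2 at chr3:160404754-160404775 on the plus strand. Capitals mark its seed, bases 2 to 8.

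hsa-miR-16-5p: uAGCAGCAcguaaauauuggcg

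The promoters of the list carry a shared feature that the list did not use. RefSeq windows on GRCh38.p14, 250 bases before to 50 after the gene start, were at hand for 40 of the 49 genes. The letters GAAA, any pair of bases and GAAA again, a core of the interferon-stimulated response element, stood on either strand in 27 of these 40, or 67.5%, against 4.38% of all 27305 genes in the table. Of the genes that passed the test in MMS1 10 of 14, or 71.4%, held them, and of those that did not pass, 17 of 25, or 68.0%. The shares of the 2 kinds were close. The letters TTCNNNGAA, a gamma-activated sequence core, which reads the same on both strands, stood in 14 of 40, or 35.0%, against 9.38% of all genes. A match is a description of the letters, and overlapping matches were counted as they came.

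Promoter stretches of 10 members show these letters in capitals, 5′ to 3′ on the strand of the gene, where TTTC, any pair of bases and TTTC is the same core on the other strand. The first 7 belong to genes that were lower in MMS1, and PARP9, IFIT1 and BST2 to genes whose brightest probe set did not pass. The windows lie at chr1:1013364-1013419 (plus) for ISG15, chr12:112938311-112938360 (plus) for OAS3, chr2:162318808-162318863 (minus) for IFIH1, chr10:89327821-89327904 (plus) for IFIT3, chr11:320866-320932 (minus) for IFITM3, chr6:32853803-32853858 (minus) for TAP1, chr3:122564312-122564341 (plus) for DTX3L, chr3:122564312-122564361 (minus) for PARP9, chr10:89392487-89392549 (plus) for IFIT1 and chr19:17405725-17405780 (minus) for BST2.
ISG15: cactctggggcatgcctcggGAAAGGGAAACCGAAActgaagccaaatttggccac
OAS3: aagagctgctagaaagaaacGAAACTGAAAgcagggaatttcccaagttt
IFIH1: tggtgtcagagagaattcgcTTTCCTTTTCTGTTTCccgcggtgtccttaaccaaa
IFIT3: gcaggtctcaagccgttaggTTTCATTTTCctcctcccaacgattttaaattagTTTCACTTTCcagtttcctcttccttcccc
IFITM3: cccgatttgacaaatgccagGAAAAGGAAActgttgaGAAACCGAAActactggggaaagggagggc
TAP1: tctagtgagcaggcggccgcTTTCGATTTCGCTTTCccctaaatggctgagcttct
DTX3L: ggagggacctccagggaagcGAAACTGAAA
PARP9: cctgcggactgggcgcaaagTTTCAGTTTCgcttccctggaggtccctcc
IFIT1: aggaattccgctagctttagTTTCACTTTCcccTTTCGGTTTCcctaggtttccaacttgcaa
BST2: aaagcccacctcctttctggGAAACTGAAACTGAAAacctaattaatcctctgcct

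DTX3L and PARP9 lie head to head. Their promoter windows overlap by 137 bases and hold 1 match, the same letters read on opposite strands. TAP1 and PSMB9 are likewise divergent neighbours, and their windows overlap by 13 bases, with both matches in the window of TAP1.

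In MMS1 the miR-16 sponge arrays had lower signals than the control arrays for part of the list, and no member was higher. With limma on all probe sets and Benjamini-Hochberg adjustment at 0.05, 16 of 48 members, or 33.3%, were lower and 0 were higher. Of all genes 8.08% were lower by the same rule and 4.34% were higher, or 12.4% in either direction. Since the list was chosen with earlier results of these data known, the gap between such shares is a description only. The median log2 difference of the 48 members was -0.28, against -0.04 for all genes, and 39 of the 48 estimates lay below 0. The 3 sponge arrays lay below all 3 control arrays for 24 members, against 18.4% of all genes, and above them for 2, against 11.9%. By role, 3 of 4 genes of antigen processing with GBP1, 2 of 4 of the ISG15 system and 2 of 3 of the PARP group were lower. Lower too were 1 of 5 nucleic acid sensors, 1 of 5 genes of the OAS family and PKR, and 1 of 4 IFIT genes. So were 2 of 8 barriers to virus entry and exit, 1 of 3 enzymes of nucleotides and RNA and 3 of 9 other members. Of 3 signal factors 0 were lower.

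**Figure D1:**
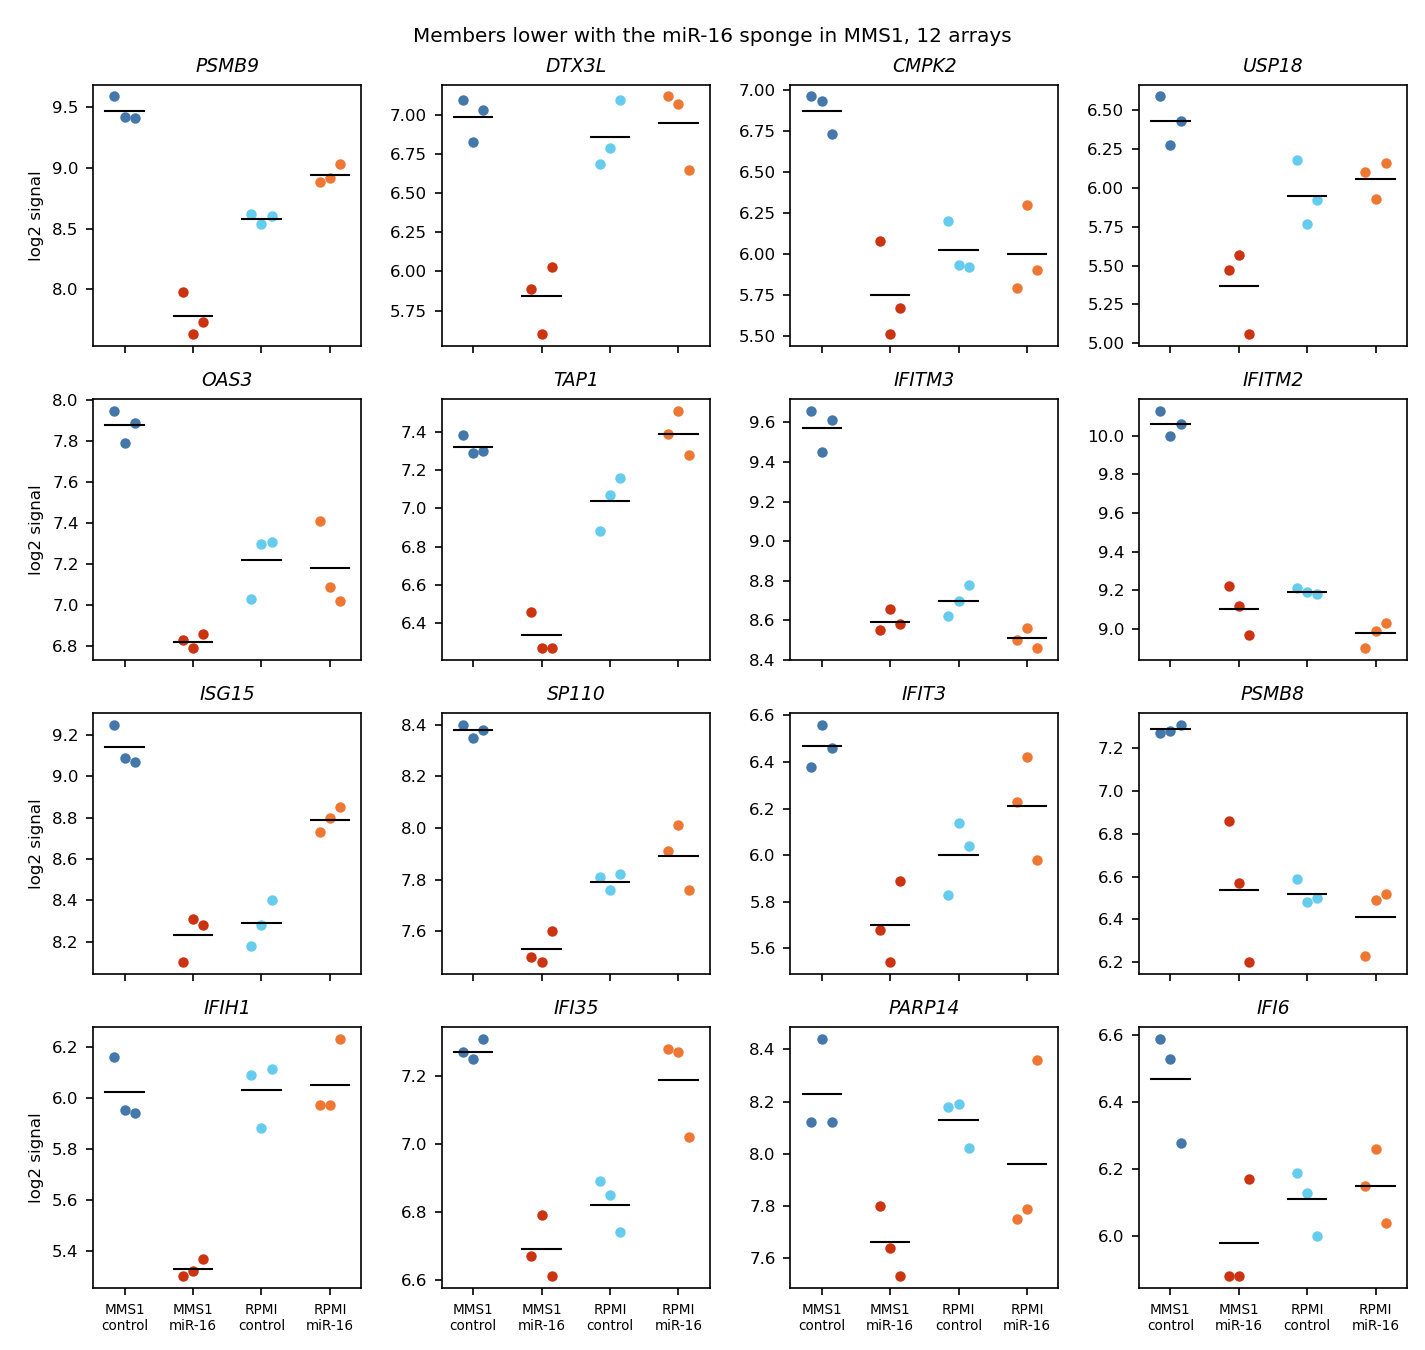
Log2 signal (vertical axes, a separate range in each panel) of the 16 members that were lower with the sponge in MMS1, with 1 point per array and a black line at the group mean of 3 arrays. The 3 MMS1 sponge arrays lie below the 3 MMS1 control arrays in all 16 panels. PSMB9 shows the widest gap, with means that differ by 1.70.

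The largest difference belonged to antigen processing. PSMB9, a catalytic subunit of the immunoproteasome, had log2 signals of 9.59, 9.42 and 9.41 in the MMS1 control arrays and 7.98, 7.63 and 7.73 in the sponge arrays. In RPMI 8226 it had 8.62, 8.54 and 8.60 in the control arrays and 8.88, 8.92 and 9.03 in the sponge arrays. The 4 groups of PSMB9 did not overlap: the MMS1 sponge arrays were the lowest, the MMS1 control arrays the highest, and both RPMI 8226 groups lay between. The fall in MMS1 was by 1.70 on the log2 scale (SE 0.110), or 3.24-fold, with an adjusted p of 5.08e-07 in limma.

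TAP1, which with TAP2 carries peptides into the endoplasmic reticulum, had 7.38, 7.29 and 7.30 in the MMS1 control arrays and 6.46, 6.27 and 6.27 in the sponge arrays. In RPMI 8226 the values were 6.88, 7.07 and 7.16 in the controls and 7.39, 7.51 and 7.28 with the sponge. The MMS1 sponge arrays lay below all 9 others. TAP1 fell by 0.99 (SE 0.109, limma adjusted p 6.74e-05) in MMS1. PSMB8, another immunoproteasome subunit, had 7.27, 7.28 and 7.31 in the MMS1 controls and a wider 6.86, 6.57 and 6.20 with the sponge, a difference of -0.74 (SE 0.146, limma adjusted p 0.00499). In that group of 4 genes only GBP1, an interferon-induced GTPase, did not pass, with a log2 difference of 0.22.

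The ISG15 system had 2 of 4 members lower. ISG15, a ubiquitin-like protein that is joined to other proteins, had 9.25, 9.09 and 9.07 in the MMS1 control arrays and 8.10, 8.31 and 8.28 in the sponge arrays. USP18, which removes ISG15 again and restrains the type I receptor, had 6.59, 6.28 and 6.43 against 5.47, 5.57 and 5.06. For both genes the groups lay well apart. ISG15 fell by 0.91 (SE 0.104, limma adjusted p 9.32e-05) and USP18 by 1.06 (SE 0.152, limma adjusted p 0.000535). The ligases HERC5 and HERC6 had log2 differences of -0.19 and 0.11 and did not pass.

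Among the sensors of foreign nucleic acid, 1 of 5 members passed. IFIH1 (MDA5), a sensor of long double-stranded RNA, had 6.16, 5.95 and 5.94 in the MMS1 control arrays and 5.30, 5.32 and 5.37 in the sponge arrays. In RPMI 8226 the control arrays had 6.09, 5.88 and 6.11 and the sponge arrays 5.97, 5.97 and 6.23, so that the MMS1 sponge arrays stood alone below the other 9. The fall was by 0.68 (SE 0.113, limma adjusted p 0.00156). It was seen by the brightest probe set only, as the dimmer ones of IFIH1 gave -0.31 and -0.02 (limma adjusted p 0.499 and 0.968). RIGI, which senses short RNA with a 5′ triphosphate, had a log2 difference of -0.26 and DDX60 of -0.43, neither past the threshold. RIGI passed once MMS1 miR-16 sponge replicate 1 was left out (limma adjusted p 0.0357). The regulator DHX58 sat at the bound of 4 on all 12 arrays and carried no information, and IFI16, a DNA sensor, had a log2 difference of 0.12.

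The oligoadenylate synthetases, which make the messenger that activates RNase L, did not move together. OAS3 had 7.95, 7.79 and 7.89 in the MMS1 control arrays and 6.83, 6.79 and 6.86 in the sponge arrays. The RPMI 8226 control arrays had 7.03, 7.30 and 7.31 and the sponge arrays 7.41, 7.09 and 7.02, so the MMS1 controls were above and the MMS1 sponge arrays below all other arrays. OAS3 fell by 1.05 (SE 0.121, limma adjusted p 9.54e-05).
OAS1 had 6.01, 6.14 and 6.17 against 5.85, 5.22 and 5.33, a difference of -0.64 with a limma adjusted p of 0.0621. The sponge arrays of OAS1 were all lower, but spread more widely than the controls. It passed without MMS1 miR-16 sponge replicate 1 (limma adjusted p 0.0206), and without RPMI 8226 miR-16 sponge replicate 1 or 3 (0.0175 and 0.0442). The second probe set of OAS1 gave -0.68 (limma adjusted p 0.0629). The mean over its probe sets gave -0.66 and passed (limma adjusted p 0.00193). OAS2 had a log2 difference of 0.35, OASL of -0.19, and the kinase EIF2AK2 (PKR), which halts translation, of 0.03, and none of the 3 passed.

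Of the IFIT genes, which bind viral RNA, 1 of 4 passed. IFIT3 had 6.38, 6.56 and 6.46 in the MMS1 control arrays and 5.68, 5.54 and 5.89 in the sponge arrays, a fall by 0.77 (SE 0.136, limma adjusted p 0.00262). The sponge arrays lay below the controls without overlap. IFIT1, often used as a reporter of interferon action, had 4.98, 4.72 and 4.93 against 4.81, 4.67 and 4.54. These values lie close to the bound and overlap (log2 difference -0.20, limma adjusted p 0.517). IFIT2 had a log2 difference of -0.46 and IFIT5 of 0.18.

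Among 8 barriers to virus entry and exit, 2 were lower. IFITM2 had 10.13, 10 and 10.06 in the MMS1 control arrays and 9.22, 9.12 and 8.97 in the sponge arrays. IFITM3 had 9.66, 9.45 and 9.61 against 8.55, 8.66 and 8.58. The MMS1 controls lay above all 9 other arrays for both of these membrane proteins, which hinder fusion of virus in endosomes. IFITM2 fell by 0.96 (SE 0.0978, limma adjusted p 3.36e-05) and IFITM3 by 0.98 (SE 0.0973, limma adjusted p 2.65e-05). The 2 genes are near-identical in sequence and signal may cross between their probe sets, so they count as uncertain between themselves.
IFITM1 (log2 difference -0.12), the tether BST2 (0.14), the GTPases MX1 (-0.01) and MX2 (0.24), PLSCR1 (-0.22) and TRIM22 (-0.33) did not pass, although PLSCR1 did without MMS1 miR-16 sponge replicate 1 (limma adjusted p 0.0482). MX1, a classical reporter gene, had 4.81, 5.49 and 5.59 in the controls and 5.43, 5.06 and 5.39 with the sponge, values that overlapped.

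Of 3 enzymes of nucleotides and RNA, 1 passed. CMPK2, a mitochondrial nucleotide kinase, had 6.96, 6.93 and 6.73 in the MMS1 control arrays and 6.08, 5.51 and 5.67 in the sponge arrays, a fall by 1.12 (SE 0.166, limma adjusted p 0.000722). RSAD2 (viperin), its neighbour in the genome, had a log2 difference of -0.26 and the exonuclease ISG20 of -0.07. The CMPK2 arrays were apart in MMS1, and the control arrays lay above all 9 others.

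In the PARP group, the ubiquitin ligase DTX3L had 7.10, 6.83 and 7.03 in the MMS1 control arrays and 5.89, 5.60 and 6.03 in the sponge arrays. The RPMI 8226 controls had 6.69, 6.79 and 7.10 and the RPMI 8226 sponge arrays 7.12, 7.07 and 6.65, so the MMS1 sponge arrays were again below the other 9. DTX3L fell by 1.15 (SE 0.160, limma adjusted p 0.000429). PARP9, its binding partner and head-to-head neighbour, showed a log2 difference of -0.09 by its brightest probe set, but of -1.04 by the dimmer one (limma adjusted p 0.00106). The probe sets of PARP9 thus disagree, and which transcripts each reads is not analysed here. PARP14 had 8.12, 8.44 and 8.12 against 7.80, 7.64 and 7.53, a difference of -0.57 (SE 0.160, limma adjusted p 0.0375). That call was lost with each of 6 single arrays left out: MMS1 control replicates 1, 2 and 3, MMS1 miR-16 sponge replicates 2 and 3, and RPMI 8226 control replicate 2 (adjusted p 0.0515 to 0.145). It was also lost after quantile normalization (0.0714) and with the replicate number as a block in the fit (0.0665).

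Of 9 other members, 3 were lower. SP110, a nuclear body protein, had 8.40, 8.35 and 8.38 in the MMS1 control arrays and 7.50, 7.48 and 7.60 in the sponge arrays, and fell by 0.85 (SE 0.0952, limma adjusted p 7.49e-05). IFI35 had 7.27, 7.25 and 7.31 against 6.67, 6.79 and 6.61, a fall by 0.58 (SE 0.104, limma adjusted p 0.00275). Both genes had tight groups that did not overlap. IFI6, a mitochondrial and endoplasmic reticulum protein, had 6.59, 6.53 and 6.28 against 5.88, 5.88 and 6.17, a difference of -0.49 (SE 0.122, limma adjusted p 0.0205). The call for IFI6 was lost without MMS1 control replicate 1 or 2, without MMS1 miR-16 sponge replicate 1 or 2 (adjusted p 0.0581 to 0.0917), or with only the MMS1 arrays in the fit (0.0676). The other 6 had log2 differences of -0.36 for IFI27, -0.02 for IFI44, 0.22 for IFI44L, -0.55 for SAMD9, -0.19 for SAMD9L and -0.03 for XAF1. IFI27, whose values of 4.65 to 5.18 in MMS1 were near the bound, did not pass (limma adjusted p 0.0706).

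None of the 3 measured signal factors passed in MMS1. IRF9, the DNA-binding part of the STAT complex, had 6.93, 7.10 and 7.21 in the control arrays and 6.67, 6.75 and 6.92 in the sponge arrays (log2 difference -0.30, limma adjusted p 0.150). IRF1, which drives antigen-processing genes, had 7.84, 7.80 and 7.60 against 7.39, 7.42 and 7.48 (log2 difference -0.32, limma adjusted p 0.0602). The IRF1 and IRF9 groups did not overlap, and IRF1 passed without MMS1 control replicate 3 (adjusted p 0.0450). IRF7, the factor that amplifies interferon production, had 6.80, 6.66 and 6.79 against 6.31, 6.60 and 6.73, with overlap (log2 difference -0.20, limma adjusted p 0.424).

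**Figure D2:**
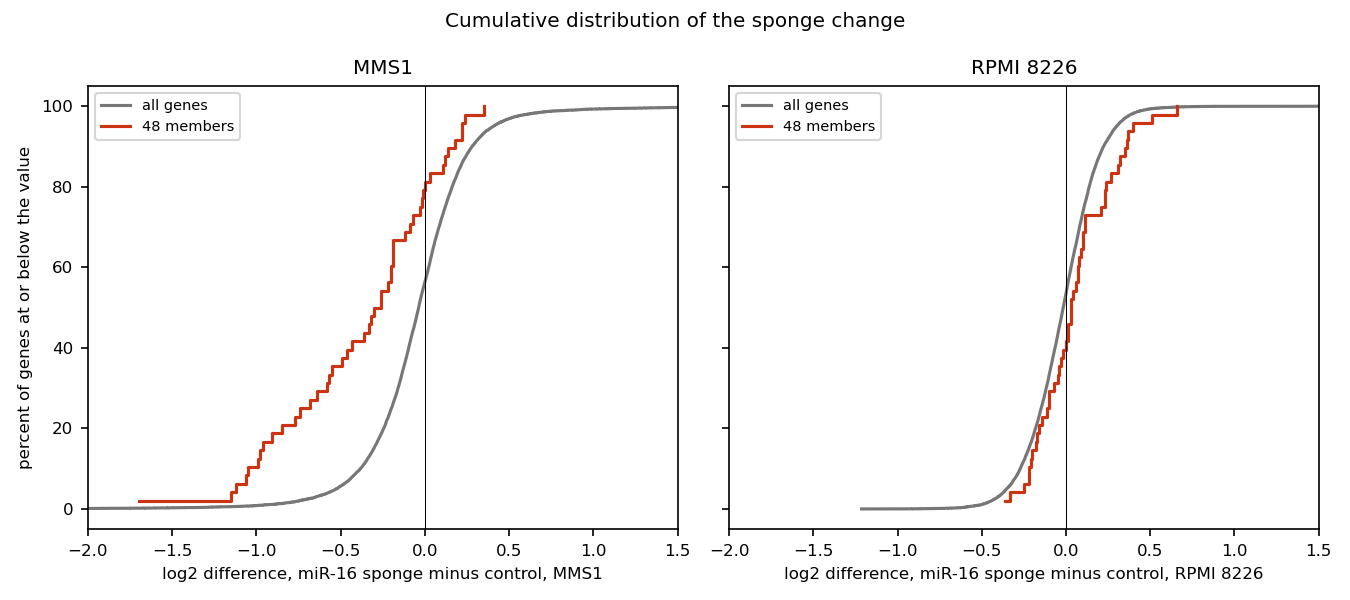
Cumulative share of genes (vertical axis, percent) at or below each log2 difference between miR-16 sponge and control arrays (horizontal axis), for the 48 members and for all genes, in MMS1 (left) and RPMI 8226 (right). In MMS1 the line of the members lies to the left of that of all genes, with medians of -0.28 and -0.04, and in RPMI 8226 the members' median is 0.03.

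Several probe sets read 24 of the 48 members, and 85 probe sets read the list in all. Of the 16 members that were lower, 5 had further probe sets, 9 in number, of which 4 were lower too. IFIT3 had a log2 difference of -1.48 by its second probe set (limma adjusted p 0.00011), and the other 3 belonged to SP110. OAS3 had 0.30 by its second probe set, which did not pass, against -1.05 by its brightest. IFIH1 had -0.31 and -0.02 by its dimmer probe sets, and PARP14 had -0.08 by its second, none of which passed. Of 28 dimmer probe sets of the members that did not pass, 2 were lower and 0 higher: that of PARP9, and 1 of PLSCR1 (log2 difference -0.53, limma adjusted p 0.0299). The mean log2 signal over the 12 arrays was under 5 for 5 members, where a difference would be compressed by the bound.

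In RPMI 8226 no member passed the test. With limma and the same adjustment, 0 of 48 members were called, and 9 had an unadjusted p under 0.05, against 14.3% of all genes. Of all genes 0.217% were called, 0.0152% higher and 0.202% lower. The median log2 difference was 0.03, between -0.01 (without RPMI 8226 control replicate 1) and 0.06 (without RPMI 8226 miR-16 sponge replicate 3) with an array left out, and so close to 0 that its sign is not settled. For all genes it was -0.02. The largest estimates were for IRF7 and ISG15. Sponge arrays lay above the controls for 9 members, against 7.52% of all genes, and below them for 5, against 16.6%.

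IRF7 had 5.89, 5.87 and 5.78 in the RPMI 8226 control arrays and 6.24, 6.69 and 6.58 in the sponge arrays. The groups did not overlap, with a log2 difference of 0.66 (SE 0.135, limma adjusted p 0.0717). ISG15 had 8.18, 8.28 and 8.40 against 8.73, 8.80 and 8.85, again without overlap (log2 difference 0.51, SE 0.104, limma adjusted p 0.0713). Without MMS1 miR-16 sponge replicate 1, the array with low 18S signals, which enters here only through the shared estimate of the spread, both passed (limma adjusted p 0.0294 for IRF7 and 0.0320 for ISG15). IFI35 (log2 difference 0.37), PSMB9 (0.36), TAP1 (0.35), OASL (0.32) and IRF1 (0.27) had non-overlapping groups with the sponge arrays above, and none of them passed.
For members that fell in MMS1, the 95% interval of the RPMI 8226 difference bounds the change. It is given here for some members with small estimates. It ran from -0.30 to 0.22 for OAS3, from -0.22 to 0.44 for USP18, from -0.26 to 0.43 for DTX3L and from -0.22 to 0.27 for IFIH1. These do not stand for all members that fell in MMS1. ISG15, IFI35, PSMB9 and TAP1 had larger RPMI 8226 estimates of 0.51, 0.37, 0.36 and 0.35, without passing. IFITM2 and IFITM3 were lower by estimate in RPMI 8226 as well, by -0.22 and -0.20, without passing.

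**Figure D3:**
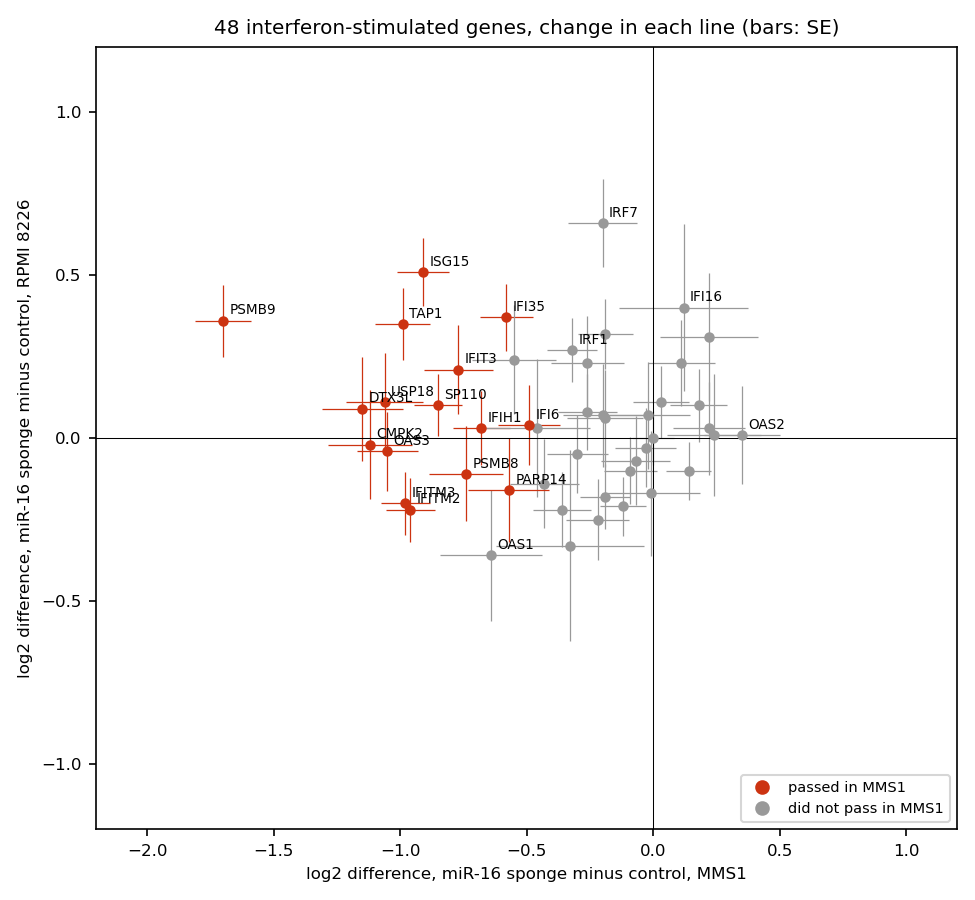
Log2 difference between miR-16 sponge and control arrays in MMS1 (horizontal axis) and in RPMI 8226 (vertical axis) for the 48 members, with bars of 1 SE from the limma fit. The 16 members that passed in MMS1 lie to the left of 0 at RPMI 8226 values of -0.22 to 0.51, and PSMB9 is the farthest left at -1.70.

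The difference between the lines was itself tested, as the sponge effect in RPMI 8226 minus that in MMS1, which uses the MMS1 arrays again. In limma 15 of 48 members were higher and 0 lower, against 2.63% and 3.27% of all genes (5.9% in either direction), and the median was 0.29 on the log2 scale. PSMB9 had the largest difference, 2.05 (SE 0.156, limma adjusted p 5.4e-06), made of -1.70 in MMS1 and 0.36 in RPMI 8226. ISG15 followed with 1.41 (SE 0.147, limma adjusted p 8.95e-05), TAP1 with 1.34 (SE 0.154, adjusted p 0.000219) and DTX3L with 1.24 (SE 0.226, adjusted p 0.00663). USP18 (1.17), CMPK2 (1.10), OAS3 (1.01), IFIT3 (0.97), IFI35 (0.95), SP110 (0.95), IFITM3 (0.78), IFITM2 (0.74) and IFIH1 (0.71) passed as well.
The other 2 were signal factors that passed in neither line alone, IRF7 with 0.86 (SE 0.191, limma adjusted p 0.0199) and IRF1 with 0.58 (SE 0.139, limma adjusted p 0.0289). IRF7 was lost without MMS1 control replicate 1, RPMI 8226 control replicate 3 or RPMI 8226 miR-16 sponge replicate 2 (adjusted p 0.0534 to 0.0546). IFIH1 was lost without MMS1 control replicate 1, RPMI 8226 control replicate 2 or RPMI 8226 miR-16 sponge replicate 3 (0.0507 to 0.0609). IRF1 was lost with 8 of the 12 arrays left out in turn, the exceptions being MMS1 control replicate 3, MMS1 miR-16 sponge replicates 1 and 3 and RPMI 8226 miR-16 sponge replicate 3 (0.0558 to 0.0809). With the replicate number as a block IRF1 was lost too (0.0563). PSMB8 (0.63), PARP14 (0.41) and IFI6 (0.53), which passed in MMS1, did not pass here, and PSMB8 passed without MMS1 miR-16 sponge replicate 1 (adjusted p 0.0245). Averaged over both lines, 11 members were lower and 0 higher, against 6.6% and 2.24% of all genes (8.84% in either direction), with a median of -0.16.

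The control arrays of the lines differed in part of the list, and these MMS1 control arrays are also the base of the MMS1 comparison. RPMI 8226 controls were lower than MMS1 controls for 10 members, against 3.8% of all genes, and higher for 1, against 6.52% (limma), with 10.3% of all genes called in either direction. The 3 RPMI 8226 control arrays lay below the 3 MMS1 control arrays for 17 members, against 12.7% of all genes, and above them for 3, against 18.9%. The median log2 difference was -0.08, against 0.03 for all genes. It was -0.04 without RPMI 8226 control replicate 1, -0.14 without MMS1 control replicate 2, -0.13 without MMS1 control replicate 3 and -0.12 without RPMI 8226 control replicate 2. IRF7 (-0.90, SE 0.135, limma adjusted p 0.000896) and PSMB9 (-0.89, SE 0.110, adjusted p 0.0002) differed most, followed by IFITM2 (-0.87), IFITM3 (-0.87), CMPK2 (-0.86), ISG15 (-0.85), PSMB8 (-0.76), OAS3 (-0.66), SP110 (-0.58) and IFI35 (-0.45). PLSCR1, a lipid scramblase, was higher, with 7.68, 7.58 and 7.82 in the MMS1 controls and 8.10, 8.14 and 8.24 in the RPMI 8226 controls (0.47, SE 0.124, adjusted p 0.0349). The PLSCR1 call was lost without MMS1 control replicate 1 or 2 or any 1 RPMI 8226 control array (adjusted p 0.0624 to 0.136). With the replicate number as a block it was lost too (0.0604). IFI35 was lost without MMS1 control replicate 1 or 3 or RPMI 8226 control replicate 2 or 3 (0.0519 to 0.0794). OAS1 did not pass by its brightest probe set (-0.65, limma adjusted p 0.0704). By its second probe set it was lower, with -1.53 (limma adjusted p 0.000537).
Across the 4 groups, the MMS1 control arrays had the highest mean for 14 of the 16 members that fell in MMS1, and the MMS1 sponge arrays the lowest for 13. Among the 32 that did not pass, these counts were 14 and 12. The choice of the 16 in itself favours this order, and the share of all genes is not given for these means. The 3 MMS1 control arrays lay above all 9 other arrays for 13 of the 48 members, against 4.48% of all genes. These were 10 of the 16 (OAS3, ISG15, USP18, IFITM2, IFITM3, CMPK2, PSMB8, PSMB9, IFI6 and SP110) and 3 of the 32 that did not pass (IRF9, DDX60 and OAS1). The 3 MMS1 sponge arrays lay below all 9 others for 9 of the 48, against 8.42% of all genes. These were 7 of the 16 (IFIH1, OAS3, USP18, PSMB9, TAP1, DTX3L and SP110) and 2 of the 32 (IRF1 and SAMD9). The 16 were chosen for lower sponge than control arrays in MMS1, which both counts use. Both held for 4 genes, OAS3, USP18, PSMB9 and SP110.

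The rest of the pathway was followed in 76 further genes, of which 70 had a probe set of their own. The other 6 were not analysed here. In MMS1, 15 of the 70 were lower and 3 higher by limma, against 8.08% and 4.34% of all genes, with a median of -0.10. In RPMI 8226 none of the 70 was called by limma, where only 0.217% of all genes were. Of the 70, 11 had an unadjusted p under 0.05, again beside 14.3% of all genes.

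**Figure D4:**
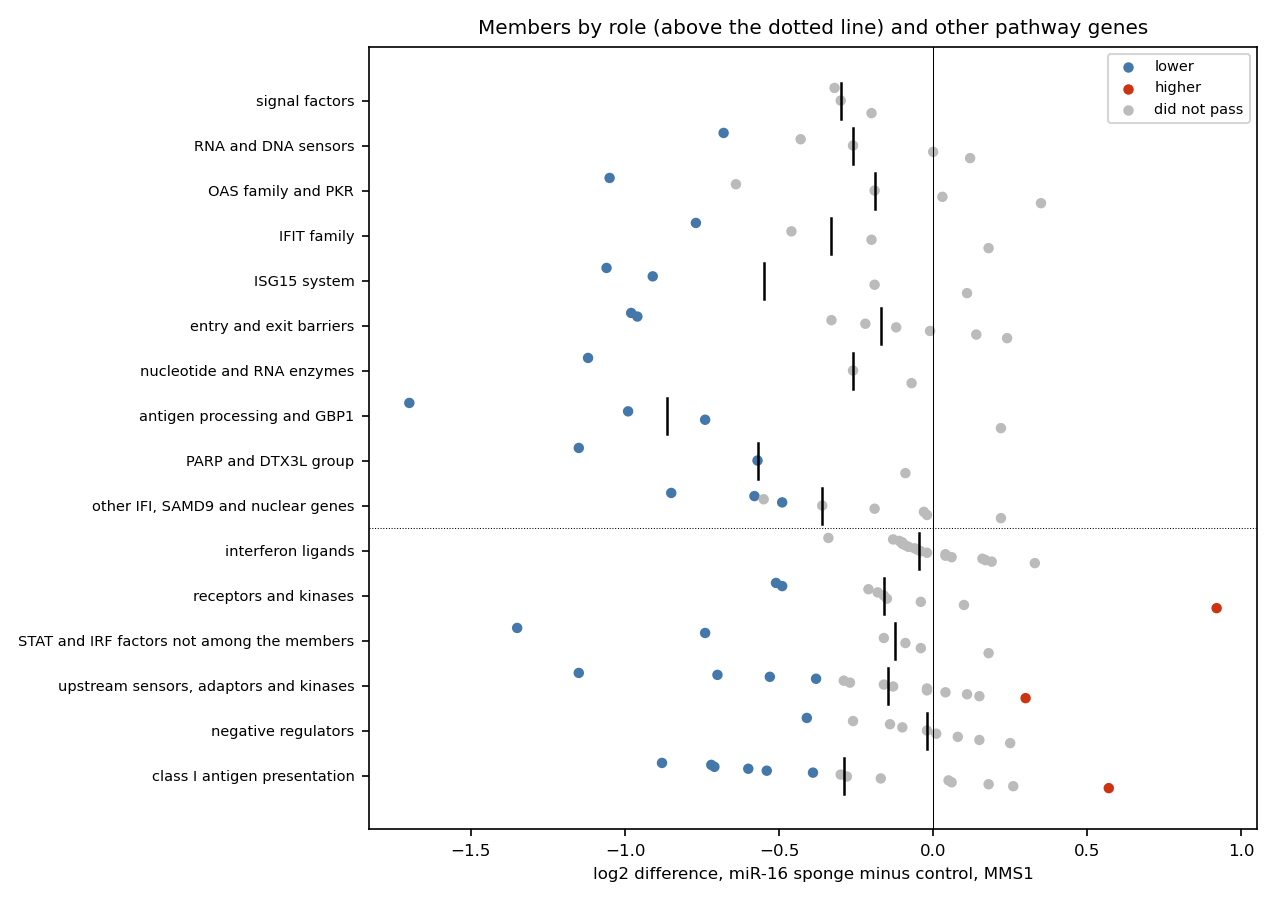
Log2 difference between miR-16 sponge and control arrays in MMS1 (horizontal axis) for the members by role (above the dotted line) and for the other pathway genes (below it), with 1 point per gene, coloured by its call, and a black line at the median of each group. None of 18 interferon ligands passed, some of them dim and others open to cross signal. Of 14 genes of class I antigen presentation 6 were lower and 1 higher, against 8.08% and 4.34% of all genes.

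Of the ligands 0 of 18 passed in either line, with 1 at an unadjusted p under 0.05 in MMS1, where 25.6% of all genes were, and 0 in RPMI 8226. IFNB1 had log2 differences of 0.04 in MMS1 and 0.02 in RPMI 8226, IFNG of 0.04 and 0.14, and IFNA2 of 0.19 and -0.12. The group means of IFNB1 lay between 4.34 and 4.83, close to the bound. Several IFNA probe sets were brighter, with means over the 12 arrays of 8.16 to 9.19. The IFNA genes resemble each other in sequence, so signal may cross and the 18 may not be separate measures.
Of 9 receptors and kinases, 1 was higher and 2 lower, beside 4.34% and 8.08% of all genes. IFNGR1, the ligand-binding chain of the interferon gamma receptor, had 7.41, 7.36 and 7.68 in the MMS1 control arrays and 8.51, 8.38 and 8.32 in the sponge arrays, a rise by 0.92 (SE 0.111, limma adjusted p 0.000141). Signal for this chain rose, while the interferon-responsive PSMB9 and TAP1 fell in the same arrays. The other chain, IFNGR2, did not pass, and a link between these genes was not tested. JAK1 was lower by -0.49 (limma adjusted p 0.0127) and IL10RB, shared with the interferon lambda receptor, by -0.51 (adjusted p 0.0199). JAK1 was lost without MMS1 control replicate 1 or 3 or MMS1 miR-16 sponge replicate 2 (0.0516 to 0.0562), with only the MMS1 arrays in the fit (0.0536), and with the mean over its probe sets, which gave -0.22 (0.261). IL10RB was lost without any 1 MMS1 control array or MMS1 miR-16 sponge replicate 2 or 3 (0.0525 to 0.0740), and with only the MMS1 arrays (0.0656). IFNAR1 (-0.21), IFNAR2 (-0.04), IFNGR2 (-0.15) and TYK2 (-0.16) did not pass.

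Of 6 further STAT and IRF factors, 2 were lower, beside 8.08% of all genes. STAT3, which answers to interleukin 6 in myeloma, had 10.84, 10.71 and 10.71 in the MMS1 control arrays and 9.61, 9.33 and 9.27 in the sponge arrays, a fall by 1.35 (SE 0.105, limma adjusted p 3.11e-06). IRF2, which competes with IRF1, was lower by -0.74 (adjusted p 0.0127), and was lost without MMS1 control replicate 1 or 3 or MMS1 miR-16 sponge replicate 2 (0.0537 to 0.0587).
Of 14 upstream sensors, adaptors and kinases, 4 were lower and 1 higher, beside 8.08% and 4.34% of all genes. MYD88, the adaptor of most Toll-like receptors, had 8.15, 7.84 and 8.01 against 7.01, 6.93 and 6.62, a fall by 1.15 (SE 0.140, limma adjusted p 0.000158). TRIM25, a ligase of the RIG-I pathway (-0.70), the mitochondrial adaptor MAVS (-0.53) and the kinase IKBKE (-0.38) were lower too. STING1 was higher by 0.30 (limma adjusted p 0.0471), a call lost with any 1 of the 12 arrays left out (0.0589 to 0.156). It was also lost with only the MMS1 arrays in the fit (0.148) and with the replicate number as a block (0.0753). IKBKE was lost without any 1 MMS1 control array or MMS1 miR-16 sponge replicate 2 (0.0511 to 0.0824), with only the MMS1 arrays in the fit (0.0726), and with the mean over its probe sets, which gave -0.14 (0.540).
Among all genes 12.4% were called in MMS1, and of 9 negative regulators 1 was, SOCS1, with -0.41 (limma adjusted p 0.0226). It was lost without MMS1 control replicate 1 or 3 or MMS1 miR-16 sponge replicate 2 or 3 (0.0641 to 0.0989), and with only the MMS1 arrays (0.0708).

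Class I antigen presentation had 6 of 14 genes lower and 1 higher in MMS1, against 8.08% and 4.34% of all genes. TAP2, the partner of TAP1, had 7.87, 7.78 and 7.87 in the control arrays and 7.11, 6.91 and 6.87 in the sponge arrays, a fall by 0.88 (SE 0.119, limma adjusted p 0.000361). PSME1, an activator of the proteasome, had 9.58, 9.56 and 9.55 against 8.88, 8.75 and 8.90, a fall by 0.72 (SE 0.0884, limma adjusted p 0.000166). The groups of both genes lay apart by more than the spread of either.
HLA-B (-0.71, limma adjusted p 0.000435), HLA-C (-0.54), HLA-F (-0.39) and PSMB10, a further immunoproteasome subunit (-0.60), were lower as well. HLA genes resemble each other in sequence, so signal may cross between their probe sets. PSMB10 was lost without MMS1 control replicate 1 or 3 or any 1 MMS1 miR-16 sponge array (0.0510 to 0.137), and also after quantile normalization (0.0551) and with only the MMS1 arrays (0.0514). HLA-F was lost without MMS1 control replicate 1 or 3 (0.0626 to 0.0690), after quantile normalization (0.0515), with only the MMS1 arrays (0.0727), and with the mean over its probe sets, which gave -0.23 (0.106). The chaperone CANX was higher by 0.57 (adjusted p 0.00171). B2M, the shared light chain, had a log2 difference of -0.30 that did not pass (adjusted p 0.0674).
All 3 subunits that turn the proteasome into an immunoproteasome (PSMB8, PSMB9 and PSMB10), both chains of the TAP transporter and the activator PSME1 were therefore lower in the MMS1 sponge arrays. None of these 6 genes passed in RPMI 8226, where only 0.217% of all genes did. The log2 differences there were 0.36 for PSMB9, 0.35 for TAP1, 0.20 for PSME1, 0.15 for TAP2, -0.11 for PSMB8 and -0.26 for PSMB10.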

How the data were processed

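Total RNA of the 12 arrays was amplified in 2 rounds and labelled with biotin, per the labels' protocols. The deposited values are log2 signals of 54675 Affymetrix probe sets, from 4 to 14.71, with array medians of 5.80 to 5.90. The authors' summary method and scaling are not stated in the labels or the file header. The number of arrays limits the precision, with a median SE of 0.14 per sponge effect and of 0.198 for the difference of effects.

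Leaving out 62 control probe sets, 54613 were fitted with limma 3.58.1 in R 4.3.3, with 1 mean per group over all 12 arrays, eBayes and Benjamini-Hochberg adjustment over all probe sets (threshold 0.05). Platform symbols were updated by Entrez identifier. Of the probe sets, 41097 named 1 gene, 1801 several and 11777 none. Only those naming 1 gene were used, the brightest for each of 19775 genes. Arrays without overlap were compared at 2 decimals. The test was checked on simulated data.

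Replicate numbers did not pair the arrays. Alternatives were quantile normalization, the brighter part of the probe sets, the mean over a gene's probe sets, only the arrays compared, a replicate block, and leaving out each array.

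The members and lists were chosen with earlier results of these data known. Any member may be named, with full statistics for those called in a comparison and for 10 fixed genes. Of the other pathway genes, those called in a sponge comparison and 13 fixed genes are named, and IRF4 as a plasma cell marker.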

Additional observations from a re-analysis of the deposited data

Results flagged for a closer look

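Each result given here differed between the lines by a test of the difference itself, the sponge effect in RPMI 8226 minus that in MMS1 in limma, in log2 units. Among the members these were PSMB9 (2.05), ISG15 (1.41), TAP1 (1.34), DTX3L (1.24), USP18 (1.17), CMPK2 (1.10), OAS3 (1.01), IFIT3 (0.97), IFI35 (0.95), SP110 (0.95), IRF7 (0.86), IFITM3 (0.78), IFITM2 (0.74), IFIH1 (0.71) and IRF1 (0.58).

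Of the other pathway genes, MYD88 (1.07), TAP2 (1.03), STAT3 (1.01), PSME1 (0.92), HLA-B (0.83), HLA-C (0.71) and TRIM25 (0.67) differed in the same direction. IFNGR1 (-1.06) and CANX (-0.63) differed in the other. The RPMI 8226 effects behind these were -0.08 for MYD88, 0.15 for TAP2, -0.34 for STAT3, 0.20 for PSME1, 0.12 for HLA-B, 0.17 for HLA-C, -0.03 for TRIM25, -0.15 for IFNGR1 and -0.06 for CANX, none of them past the threshold. TRIM25 was lost with 8 of the 12 arrays left out in turn, the exceptions being MMS1 control replicate 1, MMS1 miR-16 sponge replicates 1 and 2 and RPMI 8226 control replicate 2 (limma adjusted p 0.0541 to 0.0767). With the replicate block TRIM25 (0.0574) and IRF1 (0.0563) were lost too. CANX was lost without RPMI 8226 control replicate 2 (limma adjusted p 0.0519).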

How the results depend on the processing

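No value of a named gene changed sign after a call among 4193 recomputed, of which 3794 kept direction and side of the threshold. The members called in MMS1 numbered 16, 14 to 18 with an array left out, and 15 to 22 under the other settings. In RPMI 8226 they numbered 3 in the brighter probe sets (IRF7, ISG15 and IFI35), 2 with the mean over probe sets and 0 to 2 with an array left out, where MMS1 miR-16 sponge replicate 1 gave the 2. The pathway genes called in MMS1 numbered 18, but 11 with only the MMS1 arrays and 11 to 17 with an array left out (11 without MMS1 control replicate 1 or 3 or MMS1 miR-16 sponge replicate 2). In RPMI 8226 they numbered 2 in the brighter probe sets. For the average effect they numbered 11, against 18 in the brighter probe sets and 5 to 13 with an array left out. For the difference of effects they numbered 9, against 14 after quantile normalization and 15 in the brighter probe sets. For the control lines they numbered 18, against 11 to 19 with an array left out. The median member difference between effects was 0.29, 0.53 in the brighter probe sets and 0.28 to 0.39 with an array left out. For the control lines it was -0.08, -0.13 after quantile normalization or in the brighter probe sets, -0.14 with the mean over probe sets and -0.14 to -0.04 with an array left out, and for RPMI 8226 it was 0.03 and -0.01 to 0.06. The cause was not tested in any of these. The share of all genes called is not given for the alternative settings, so a changed count is not a result about the list. The average and the difference need all groups, so no fit on the arrays compared alone was run for them.

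Residuals of arrays with the same replicate number correlated at -0.07 to 0.06 (18 pairs), those with other numbers at -0.06 to 0.09 (36 pairs). With the replicate block the members called numbered 15 in MMS1, 0 in RPMI 8226, 11 for the average, 14 for the difference and 10 for the control lines. The pathway genes called with the block numbered 17, 0, 9, 8 and 15. Signal near the bound of 4 limits what dim members such as IFIT1, IFI27 and DHX58 can show.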
